A study of Mus musculus with 20 samples.

Results

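The genes described here are 40 mouse genes of the lysosome, of autophagy and of the transcription factors TFEB and TFE3, chosen by gene symbol. They were lysosomal hydrolases and membrane proteins, subunits of the V-ATPase, autophagy genes, Tfeb and Tfe3. Of these, 38 had a named probe set on the array and were measured, out of 19505 genes in all. Ctsd and Glb1 had no named probe set in the annotation used and were not analysed here. The 40 genes were chosen with earlier results of these data known. Expression was measured on 20 Clariom S arrays in Tregs, the regulatory class of T cell that holds immune responses in check, from C57BL/6 mice. Bead enrichment for CD4 preceded a sort for cells with both CD4 and CD25 on their surface.

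The Rheb experiment held wild-type (WT) and Rheb1/2 KO Tregs (here Rheb KO), each unstimulated and stimulated, with 3 arrays per group. The Rag experiment held WT and RagAB KO Tregs (here Rag KO), each unstimulated and stimulated for 8 h, with 2 arrays per group. Which stimulus was used, how long it acted in the Rheb experiment, and by which Cre or other means the genes were deleted is not given in the sources used here. Nothing in the labels ties arrays to different animals, and the p-values therefore describe spread among these samples only, which may be technical. Title and treatment field give opposite states for 6 arrays of the Rheb experiment, namely all arrays titled unstimulated Rheb KO or stimulated WT. The groups follow the titles and source names, and every result of the Rheb experiment rests on that choice. By the treatment field, all WT arrays of that experiment would be unstimulated and all its Rheb KO arrays stimulated. By title, Lamp2 was 11.12 to 11.19 in the unstimulated and 11.83 to 11.96 in the stimulated arrays of that experiment. In bulk samples such as these, fewer cells of a type and less RNA per cell cannot be told apart.

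Lysosomes break down proteins, sugars and lipids with acid hydrolases, in a lumen that the V-ATPase proton pump keeps acid, and autophagy delivers cell contents to them. The kinase complex mTORC1 is active on the lysosome's surface, to which the Rag GTPases recruit it when amino acids are plentiful and where Rheb switches on its kinase. TFEB and TFE3 drive lysosome and autophagy genes through promoter elements with the core CACGTG, are held in the cytosol when mTORC1 phosphorylates them, and are themselves brought to the lysosome by Rag GTPases.

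Values are log2 signals, in which a difference of 1 is a 2-fold change. A gene was called where its Benjamini-Hochberg adjusted p from limma, over all 19505 genes, was below 0.05. Array medians ran from 7.67 to 7.77 for the Rheb experiment and from 7.18 to 7.55 for the Rag experiment, and 34 to 37 of the 38 members lay above the median of their array. Wipi1 lay below the median of the negative control probe sets in every array, and Gla did so in every stimulated array, so that their differences there may be understated.

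The targeted genes were examined first. Rheb signal was 9.83, 9.34 and 10.14 in unstimulated WT arrays and 8.81, 8.82 and 9.05 in Rheb KO arrays, and the groups did not overlap. The difference was -0.88 ± 0.17 (SE; adjusted p = 0.0413, limma) unstimulated and -0.93 ± 0.17 (adjusted p = 0.0278, limma) stimulated. Rhebl1, which encodes the second Rheb protein, lay below the negative control median in every array of the Rheb experiment, with values from 4.99 to 6.10, and its differences there were not called. Rraga, which encodes RagA, was 9.19 and 9.33 in unstimulated WT arrays and 6.67 and 6.99 in Rag KO arrays. It fell by 2.43 ± 0.25 unstimulated (adjusted p = 0.00266, limma) and fell by 2.18 ± 0.25 stimulated (adjusted p = 0.00448, limma). The calls of Rheb ended with 9 and 6 of 12 arrays left out in turn, at -0.96 to -0.70 unstimulated and -1.0 to -0.83 stimulated. Those of Rraga ended without unstimulated WT 1 (-2.50) or 2 (-2.36) and without stimulated Rag KO 1 (-2.02). Rragb, which encodes RagB, differed by -0.08 and -0.22 with overlapping arrays. How the probes of these 4 genes lie relative to the deleted parts is not stated in the labels, so a target that did not differ checks nothing.

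Promoter sequences are shown because the core CACGTG is the letters through which TFEB and TFE3 are known to bind. RefSeq windows of 250 bases before to 50 bases after the gene start (build GRCm38.p6) were at hand for 33 of the 40 genes. Searched on both strands, CACGTG occurred in 14 of the 33 genes (42.4%), against 8.09% of 27025 genes with a window of the same length. TCACGTGA, which contains CACGTG, occurred in 7 (21.2%) against 1.12%. Among genes also tested on the arrays, CACGTG occurred in 38.7% of 31 members against 9.26% of 15691 genes. Lysosome genes are known to be driven through this core, so these shares describe the choice of genes and test nothing. The following stretches of 60 bases, 5′ to 3′ on the gene's strand with each CACGTG in capitals, lie upstream of the start of 8 members. They are Gla, whose signal fell most on stimulation, 3 of the membrane proteins, 3 other hydrolases and a V-ATPase subunit.
Gla (chrX:134601184-134601243, minus strand): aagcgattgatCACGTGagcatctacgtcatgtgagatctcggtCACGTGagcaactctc
Mcoln1 (chr8:3500434-3500493, plus strand): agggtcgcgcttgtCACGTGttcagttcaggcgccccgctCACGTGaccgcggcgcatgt
Lamp1 (chr8:13159096-13159155, plus strand): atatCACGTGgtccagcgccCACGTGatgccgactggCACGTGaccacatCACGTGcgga
Cln3 (chr7:126583339-126583398, minus strand): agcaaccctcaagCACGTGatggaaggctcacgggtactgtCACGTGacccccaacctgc
Gaa (chr11:119267796-119267855, plus strand): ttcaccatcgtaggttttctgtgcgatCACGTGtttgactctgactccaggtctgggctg
Naglu (chr11:101069994-101070053, plus strand): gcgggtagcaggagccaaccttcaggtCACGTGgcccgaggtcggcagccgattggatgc
Ctsa (chr2:164833713-164833772, plus strand): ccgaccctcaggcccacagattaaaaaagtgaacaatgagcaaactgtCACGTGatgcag
Atp6v1a (chr16:44139358-44139417, minus strand): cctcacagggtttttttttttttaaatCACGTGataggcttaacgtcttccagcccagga

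The stretch of Lamp1 holds 4 copies of the core, those of Gla, Mcoln1 and Cln3 hold 2 each, and the other 4 stretches hold 1. A match says only that the letters are there, and windows without one lack these letters in this window only.

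In stimulated Tregs, lysosome genes stood higher in Rag KO than in WT arrays. Of the 38 members, 30 had a higher mean in Rag KO, and the median difference was 0.47 on the log2 scale against -0.06 over all genes. In 22 members (57.9%) both Rag KO arrays exceeded both WT arrays, which held for 18.1% of all genes. In 5 members (13.2%) both Rag KO arrays were lower, against 26.2% of all genes. Most members lay above the median of their array, and these shares of all genes were not matched for signal level. The part of signal level in the shift was not tested. After a second quantile normalization 27 of 38 members were higher, with a median of 0.39 against -0.09 over all genes. None of the 38 passed the adjusted test in limma, where 20 genes in all (0.103%) did, and at an unadjusted p under 0.05 the members numbered 14, all higher, against 3.69% of all genes higher at that level and 5.07% in either direction. Both states and both genotypes share 1 estimate of spread per gene in this fit. With only the stimulated arrays in the fit, Gaa, Tpp1, Hexa and Asah1 were called, and the same 4 genes were called with all 20 arrays in the fit. Genes called in all also varied, from 20 to 274 over the settings that left out no single array. The WT array numbered 2 had the lowest members of the 8 arrays of this experiment, with a mean 1.46 above the array median against 1.83 in the other stimulated WT array and 2.16 and 2.08 in the Rag KO arrays. Without it the median difference was 0.25, with 27 of 38 members higher and 5 at an unadjusted p under 0.05. Without Rag KO 1 that last count was also 5, with a median of 0.42, and without Rag KO 2 it was 9.

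Hydrolases of sugars, proteins and lipids held the 4 largest differences. Hexa, a subunit of the β-hexosaminidase that breaks down gangliosides, was 10.14 and 10.04 in stimulated Rag KO arrays and 8.98 and 8.23 in WT arrays. The groups did not overlap, and the difference was 1.48 ± 0.32 (SE, n = 2 per group; adjusted p = 0.138, limma), or 2.8-fold. Asah1, the acid ceramidase, was 9.69 and 9.61 in Rag KO arrays and 8.40 and 8.04 in WT arrays, a difference of 1.42 ± 0.28 (adjusted p = 0.102, limma) with no overlap. Gaa, which breaks down glycogen, was 11.35 and 11.21 against 10.0 and 9.35, and differed by 1.61 ± 0.36 (adjusted p = 0.16, limma). Tpp1, a peptidase named here after its values were seen, was 10.67 and 10.13 against 9.24 and 8.34, and differed by 1.61 ± 0.36 (adjusted p = 0.163, limma).

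Not all hydrolases stood this way. Of the 7 glycosidases 5 were higher in Rag KO, with a median difference of 0.26 and a range from -0.30 to 1.61. Galns, a sulfatase grouped with them, was lower in both Rag KO arrays (-0.30), and Gla, the α-galactosidase, was 6.35 and 6.21 in Rag KO against 6.31 and 5.73 in WT arrays, which overlap. Of the 7 proteases 6 were higher, with a median of 0.24, from -0.24 for Ctsz to 1.61 for Tpp1. Ctsb, a cathepsin, was 11.05 and 10.59 against 11.07 and 10.50 and differed by 0.04. The 3 lipid-handling genes were all higher, Psap, the precursor of the saposins, by 0.65 and Ppt1 by 0.47.

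Membrane proteins and the proton pump stood higher throughout. Mcoln1, the lysosomal calcium channel, was 9.92 and 9.99 in stimulated Rag KO arrays against 9.44 and 8.89 in WT arrays, a difference of 0.80 ± 0.25 (adjusted p = 0.549, limma). Lamp1, a major protein of the lysosomal membrane, was 11.32 and 11.21 against 10.70 and 10.54, a difference of 0.64 ± 0.26 (adjusted p = 0.905, limma). Lamp2, its relative with a role in autophagy, was 12.22 and 12.24 against 11.81 and 11.15, a difference of 0.75 ± 0.27. In all 3 the arrays did not overlap, whereas those of Cln3 did, at 11.72 and 10.35 against 10.55 and 10.25. The 5 V-ATPase genes differed by 0.29 to 0.91, each with both Rag KO arrays above both WT arrays, and their median was 0.60.

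Autophagy genes differed less, and the transcription factors lay the other way. Among the 10 autophagy genes the median difference was 0.16, with a range from -0.24 to 0.84. The highest was Atg7, an enzyme of the conjugation step, named after its values were seen, at 10.72 and 10.43 against 9.99 and 9.48. Map1lc3b, which encodes the LC3B protein that coats autophagosomes, was 12.12 and 11.94 against 11.75 and 11.66 and differed by 0.33 ± 0.29. Sqstm1, the cargo receptor p62, differed by 0.21 ± 0.28 and Ulk1, the kinase that starts autophagy, by 0.12 ± 0.28, both with overlapping arrays. Tfeb was 9.04 and 8.94 in stimulated Rag KO arrays and 9.23 and 9.52 in WT arrays, a difference of -0.38 ± 0.23 (adjusted p = 0.947, limma) without overlap. Tfe3 was 9.08 and 8.89 against 9.31 and 9.18, and differed by -0.26 ± 0.23. Thus mRNA of both factors was lower in both Rag KO arrays, by less than 2 standard errors.

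**Figure D1:**
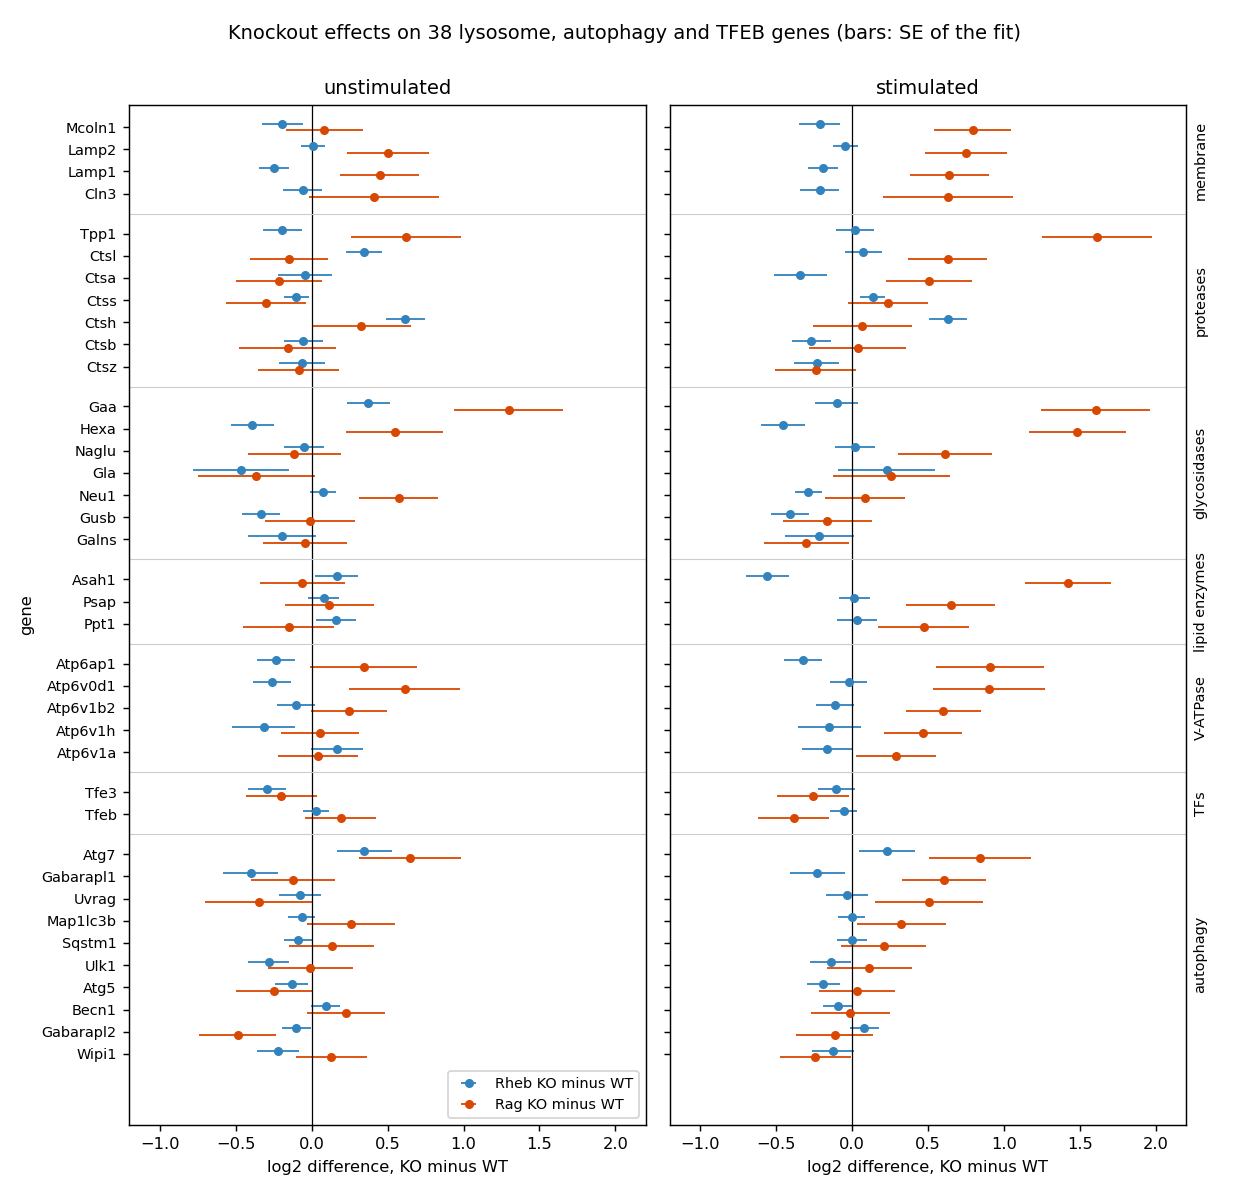
Each row is 1 of the 38 measured members, grouped by role, and the horizontal axis is the log2 difference of KO minus WT from the limma fit with its SE as a bar, unstimulated on the left and stimulated on the right. In stimulated Tregs the Rag KO differences (orange) lie above 0 for 30 members and the Rheb KO differences (blue) for 10.

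Members whose promoter holds the core could be set beside those without it. In stimulated Tregs, the 12 tested members with CACGTG had Rag KO differences from 0.03 to 1.61 with a median of 0.63, and all 12 were above 0. The 19 tested members with a window but without the core had a median of 0.24, and 13 of them were above 0. The ranges overlap, since Tpp1 and Hexa lack the core in their windows. The sets also differ in role. Of the autophagy genes with a window only Atg5 and Atg7 hold the core, and Tfeb and Tfe3 lack it. The part of role in the difference of the medians was not tested. In unstimulated Tregs the Rag KO medians were 0.06 with the core (7 of 12 above 0) and 0.12 without it. For the Rheb KO in stimulated Tregs they were -0.13 and -0.06.

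Markers of other cell types were read beside these values. Of 13 macrophage markers 11 were measured. Their array means lay between 6.47 and 6.51 in stimulated Rag KO arrays and between 6.31 and 6.48 in WT arrays, and their summed linear signal between 1080 and 1220 against 953 to 1080. Of the 11, C1qa, C1qc, Ms4a7 and Mertk were below the negative control median in all 4 arrays. C1qb, Cd163 and Vsig4 were below it throughout in Rag KO only, and Csf1r, Adgre1, Fcgr1 and Lyz2 were below it throughout in neither group. Among 9 dendritic cell markers, whose summed signal was 2970 to 3010 against 1520 to 1620, the class II genes H2-Aa (1.46), H2-Ab1 (0.82) and H2-Eb1 (1.44) were higher in both Rag KO arrays without being called. Itgax and Clec9a were below the negative control median in all 4 arrays. Flt3 and Siglech were below it throughout in Rag KO only, and Xcr1 in WT only. The macrophage gene Lyz2, itself a lysosomal enzyme of the class of lysozymes, was 1.02 higher without overlap and the neutrophil gene S100a8 1.90 higher with overlapping arrays, neither called. The 4 neutrophil markers measured summed to 317 and 1690 in the Rag KO arrays against 372 to 440 in WT. The 7 markers of NK and CD8 T cells summed to 1550 to 1610 against 943 to 1150, with Eomes 1.76 higher without a call and with Ncr1, Klrb1c, Klrd1 and Klre1 below the negative control median in all 4 arrays. The part of these cell types in the result was not tested.

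In unstimulated Tregs no such shift of the members was seen between Rag KO and WT in the main fit, although other settings moved the counts. The median difference was 0.07 against 0.03 over all genes, with 21 members higher and 17 lower. None was called by limma, against 22 genes in all (0.113%), and 2 members (Gaa and Neu1) had an unadjusted p under 0.05, both higher, against 6.66% of all genes. Lamp2, Gaa and Neu1 were higher in both Rag KO arrays and Gabarapl2 was lower, which makes 7.89% and 2.63% of members against 15.9% and 12.5% of all genes. Gaa had the largest difference, at 10.67 and 11.65 in Rag KO against 10.29 and 9.42 in WT arrays, or 1.30. Tfeb was 9.23 and 9.17 against 9.17 and 8.85, and Mcoln1 was 9.38 and 9.74 against 9.53 and 9.42, both close in the 2 groups. The 4 arrays differed within their groups. The median was 0.30 without Rag KO 1 (32 members higher) or without WT 1 (28 higher). It was -0.13 without WT 2 (16 higher) and -0.175 without Rag KO 2 (13 higher). After a second quantile normalization 25 members were higher, with a median of 0.11 against 0.06 over all genes. Gaa was then called (1.46, adjusted p = 0.0291, limma), among 54 genes in all, and 8 members had an unadjusted p under 0.05, all higher. With all 20 arrays in the fit Gaa was also called, and 8 members were higher and 1 lower at that unadjusted level. Genes called in all ranged from 12 to 210 over the settings that left out no single array.

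**Figure D2:**
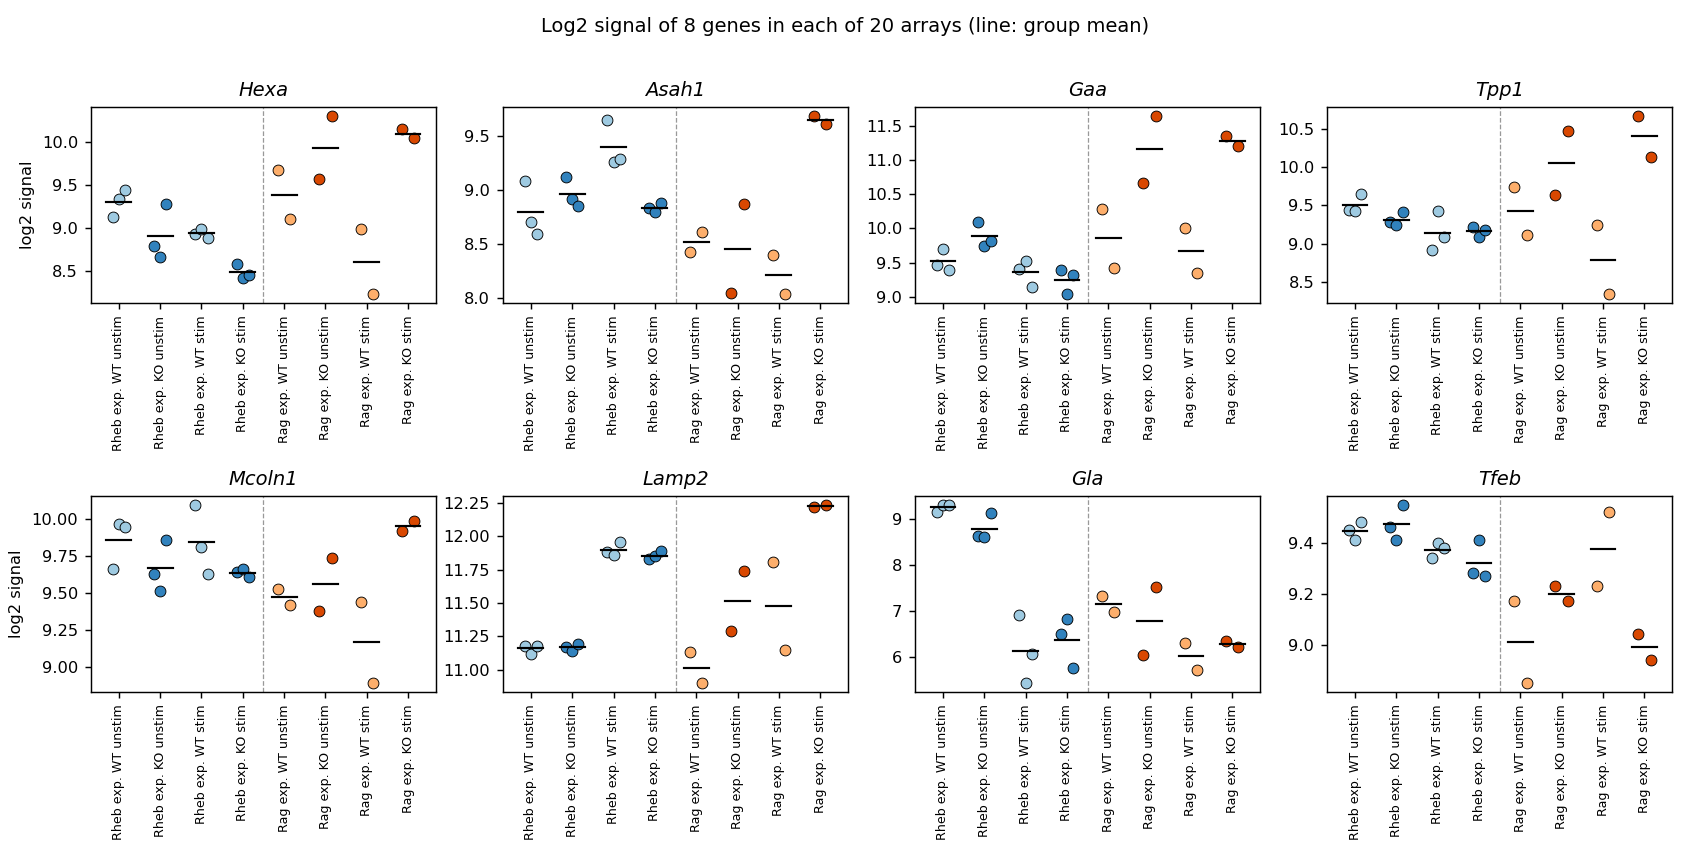
Log2 signal of 8 members in each of the 20 arrays, with the group mean as a line; the dashed line parts the Rheb experiment (left, blue) from the Rag experiment (right, orange). For Hexa, Asah1, Gaa, Tpp1, Mcoln1 and Lamp2 both stimulated Rag KO arrays lie above both stimulated WT arrays, and for Tfeb both lie below.

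Loss of Rheb was followed by small differences in these genes. In unstimulated Tregs 12 members were higher and 26 lower in Rheb KO, the median difference was -0.08 against 0.02 over all genes, and none was called by limma, against 99 genes in all (0.508%). At an unadjusted p under 0.05 there were 8 members, 3 higher and 5 lower, where 10.2% of all genes passed that level. All Rheb KO arrays lay above all WT arrays for Ctsl, Ctsh and Gaa (7.89% of members, 7.62% of all genes). They lay below for 8 members (21.1%, against 7.08% of all genes), among them Lamp1, Gla and Tfe3. Lamp1 was 10.67, 10.78 and 10.67 in Rheb KO against 10.87, 10.94 and 11.04 in WT arrays, a difference of -0.25 ± 0.10. Tfe3 was 9.24, 8.91 and 9.14 against 9.39, 9.44 and 9.34, a difference of -0.30 ± 0.12, while Tfeb was 9.46, 9.41 and 9.55 against 9.45, 9.41 and 9.48. In these unstimulated arrays the 11 macrophage markers were all higher in Rheb KO, by a median of 0.41 with C1qa (1.14) and Ms4a7 (0.84) called, and the class II genes H2-Ab1 (0.73) and H2-Eb1 (0.83) were called too. The summed signal of the macrophage markers was 2540 to 2700 in Rheb KO and 1920 to 1930 in WT arrays, and their part in the differences of the members was not tested.

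In stimulated Tregs 10 members were higher and 28 lower in Rheb KO, with a median of -0.11 against -0.01 over all genes. Ctsh, the cathepsin with aminopeptidase activity, rose and was the only member called, with 106 genes called in all (0.543%). It was 8.31, 8.30 and 8.19 in Rheb KO and 7.84, 7.32 and 7.74 in WT arrays, a difference of 0.63 ± 0.13 (adjusted p = 0.0475, limma), and unstimulated it was 8.39, 8.59 and 8.37 against 7.91, 7.77 and 7.83. The groups did not overlap in either state. Its call ended with any 1 of the 12 arrays left out, at differences from 0.48 (without the stimulated WT array numbered 2) to 0.74 (without the one numbered 1). The class II gene H2-Eb1 was called in the same comparison (0.78). The summed signal of the 9 dendritic markers was 1980 to 2130 in Rheb KO against 1570 to 1890 in WT arrays. Flt3, Itgax, Xcr1 and Clec9a were below the negative control median in all these arrays. The part of the dendritic markers in the rise of Ctsh was not tested. In the Rag experiment stimulated Rag KO and WT arrays overlapped for Ctsh, at 6.75 and 6.90 against 6.95 and 6.56.

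Most of the genes that stood high in stimulated Rag KO did not do so in stimulated Rheb KO. All Rheb KO arrays were below all WT arrays for Cln3, Hexa, Gusb, Neu1, Asah1, Becn1 and Atg5 (18.4% of members, 8.8% of all genes) and above for Ctsh and Ctss (5.26%, against 6.75%). Asah1 was 8.84, 8.80 and 8.88 in Rheb KO and 9.65, 9.26 and 9.29 in WT arrays, a difference of -0.56 ± 0.14. Hexa was 8.58, 8.42 and 8.45 against 8.93, 8.99 and 8.88, a difference of -0.45 ± 0.14. Gaa, Tpp1 and Mcoln1 differed by -0.10, 0.02 and -0.21, and Lamp2 was 11.83, 11.85 and 11.89 against 11.88, 11.86 and 11.96. Of these differences only the one in Ctsh was called, and 5 others had an unadjusted p under 0.05, all lower, where 9.25% of all genes passed that level.

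The Rag and Rheb knockout effects were then compared in 1 fit of all 20 arrays, each effect being taken relative to WT of the same experiment. This fit gives both experiments 1 estimate of spread per gene, although they may differ in spread. In stimulated Tregs the Rag effect exceeded the Rheb effect for 31 of 38 members (81.6%), against 45.0% of all genes, with a median difference of 0.50 against -0.04. Without the stimulated WT array numbered 2 of the Rag experiment the median was 0.31, with 30 members higher and 9 at an unadjusted p under 0.05. In 21 members (55.3%) the Rag effect was above 0 and the Rheb effect below, which held for 20.7% of all genes. Asah1 and Hexa were called, among 37 genes in all (0.19%), and 14 members had an unadjusted p under 0.05, against 7.06% of all genes. The Rag effect on Asah1 was 1.98 ± 0.29 above the Rheb effect (adjusted p = 0.00217, limma), and the call held with each of the 20 arrays left out. Mean Asah1 signal in stimulated WT arrays was 9.4 in the Rheb experiment and 8.22 in the Rag experiment. In stimulated KO arrays it was 8.84 for Rheb KO and 9.65 for Rag KO. The WT arrays of the experiments thus differed as well as the KO arrays. For Hexa the Rag effect was 1.94 ± 0.33 above the Rheb effect (adjusted p = 0.0088, limma). Its call ended without the stimulated Rag KO array numbered 1 (1.89) or the stimulated WT array numbered 2 of the Rag experiment (1.56). Calls also depend on the shared spread. In the fit of all 20 arrays Asah1 was called in stimulated Rag KO (adjusted p = 0.00143, limma), though not in the fit of the Rag experiment alone. Ctsh in stimulated Rheb KO lost its call there (adjusted p = 0.613, limma). Leaving out single arrays does not test this.

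Other members had differences of the same sign without a call. Gaa differed by 1.71, Tpp1 by 1.59, Atp6ap1, an accessory V-ATPase subunit named after its values were seen, by 1.23, Mcoln1 by 1.01 and Lamp1 by 0.83. Without the 2 Rag experiment arrays of lowest median, an alternative chosen after seeing the data, 5 members were called, with Gaa, Tpp1 and Lamp1 joining Asah1 and Hexa. Both arrays left out were unstimulated (WT 2 and Rag KO 1). The stimulated differences therefore stayed as they were, and only the estimate of spread changed. Genes called in all for the stimulated Rag minus Rheb effects ranged from 37 to 124 over the settings that left out no single array. Tfeb and Tfe3 differed by -0.33 and -0.16, and Gla by 0.03. In unstimulated Tregs the Rag effect exceeded the Rheb effect for 25 of 38 members (65.8%, against 50.8% of all genes), with a median of 0.19 against 0.01 and no member called by limma, against 11 genes in all (0.0564%), while 6 had an unadjusted p under 0.05, against 7.31% of all genes. That direction rested on single arrays, since without unstimulated WT 2 of the Rag experiment the count was 16 of 38 with a median of -0.11, and without unstimulated Rag KO 2 it was 22 with a median of 0.04. These differences also hold whatever else separated the experiments, such as the stimulation, whose duration is given for the Rag experiment alone. The responses to it were not alike in every gene. Atf3 fell with stimulation in the Rheb experiment (-0.92 in WT, -0.68 in Rheb KO) and rose in the Rag experiment (1.9 in WT, 2.11 in Rag KO), each called. Fos and Fosb were called lower in both experiments and both genotypes. The part of the stimulation in the Rag minus Rheb differences was not tested.

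**Figure D3:**
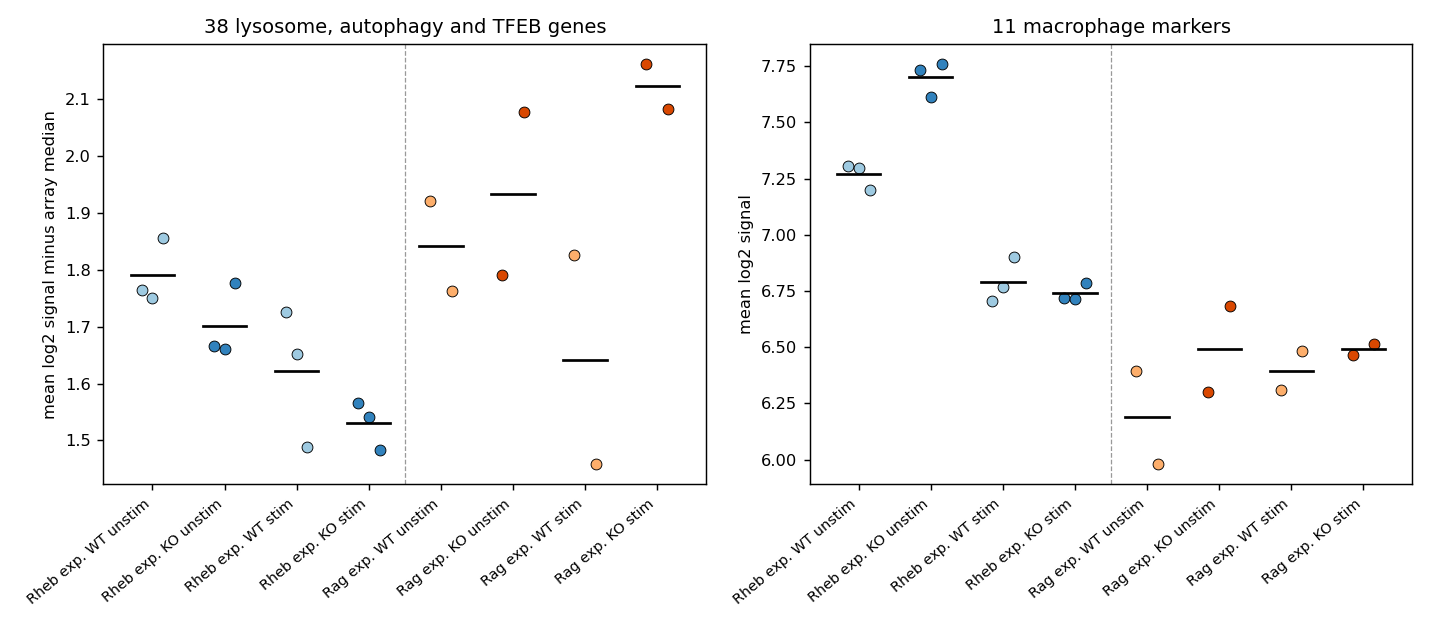
Left, the mean log2 signal of the 38 members minus the median of all genes in each of the 20 arrays; right, the mean log2 signal of 11 macrophage markers in the same arrays; lines are group means. The 2 stimulated Rag KO arrays have the highest member means of the 20 arrays (2.16 and 2.08), the lower of them level with an unstimulated Rag KO array (2.08), with marker means of 6.47 and 6.51, while the marker means of unstimulated Rheb KO arrays reach 7.76.

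Stimulation itself moved several hydrolase genes in the Rheb experiment, most of them down. In WT arrays 6 of 38 members were called, 2 up and 4 down, against 1828 genes or 9.37% of all (4.49% up, 4.89% down). In Rheb KO arrays 9 were called, 2 up and 7 down, against 1901 genes or 9.75% of all (4.55% up, 5.19% down). At an unadjusted p under 0.05 the members numbered 13 and 15, where 21.1% of all genes passed that level in each. The medians of all members were -0.09 and -0.11, against 0.02 and -0.01 over all genes. The largest change was in Gla, whose product removes galactose from lipids and proteins. Its signal was 9.15, 9.31 and 9.32 in unstimulated WT arrays and 6.91, 5.44 and 6.06 in stimulated ones. In Rheb KO arrays it was 8.63, 8.62 and 9.13 before and 6.51, 6.82 and 5.76 after stimulation. It fell by 3.12 ± 0.32 in WT (adjusted p = 5.03e-05, limma) and fell by 2.43 ± 0.32 in Rheb KO (adjusted p = 0.00027, limma), and both calls held with each array left out.

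Lamp2 rose in both genotypes, from 11.18, 11.12 and 11.18 to 11.88, 11.86 and 11.96 in WT (0.74 ± 0.08, adjusted p = 8.95e-05, limma) and by 0.69 ± 0.08 in Rheb KO (adjusted p = 0.000117, limma). No array titled unstimulated reached one titled stimulated. Naglu, a heparan sulfate hydrolase, fell by 0.65 in WT and fell by 0.58 in Rheb KO, and Psap fell by 0.42 and fell by 0.48. Asah1 rose in WT alone, by 0.60 ± 0.14, against -0.12 in Rheb KO, and the difference between these responses of -0.72 was not called. Ctss, a cathepsin used in antigen presentation, fell by 0.34 in WT. Among the calls in Rheb KO only, Ctsa (-0.64), Gaa (-0.64), Ctsb (-0.54) and Neu1 (-0.47), a sialidase, fell, while Gabarapl2, an LC3 relative, rose by 0.37. Lamp1 (-0.22 and -0.16), Mcoln1 (-0.01 and -0.03), Map1lc3b (-0.12 and -0.05), Sqstm1 (-0.12 and -0.04), Ulk1 (0.05 and 0.20), Tfeb (-0.07 and -0.16) and Tfe3 (0.04 and 0.23) were not called in WT or Rheb KO.

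Some of these calls rested on single arrays. In WT, the call of Asah1 ended without the unstimulated arrays numbered 2 (0.56) or 3 (0.50) or the stimulated one numbered 1 (0.48). The calls of Ctss and Psap each ended without unstimulated 1 or 3 or stimulated 2 or 3, at -0.34 to -0.32 and at -0.41 to -0.36. In Rheb KO, the call of Ctsa ended without unstimulated 1 (-0.55) or 3 (-0.66) or stimulated 2 (-0.47) or 3 (-0.69), that of Ctsb without unstimulated 1 (-0.44) or stimulated 1 (-0.49), and that of Gaa without stimulated 2 (-0.54). The call of Naglu ended without stimulated 2 (-0.49) or 3 (-0.52), and that of Gabarapl2 without any of 5 arrays, unstimulated 1 or 2 or stimulated 1, 2 or 3, at 0.33 to 0.38. No member and no gene in all (0.0%) had a called difference between the WT and Rheb KO responses in limma, while 3 members and 1207 genes (6.19%) had an unadjusted p under 0.05. Macrophage markers fell with stimulation as well, with median differences of -0.515 in WT and -0.65 in Rheb KO and 7 of 11 called in each. Their summed signal was 1920 to 1930 before and 1290 to 1460 after stimulation in WT, and 2540 to 2700 before and 1250 to 1280 after in Rheb KO, with Cd163 below the negative control median in all 4 groups. Of 9 dendritic markers 4 fell in each genotype, H2-Eb1 with -1.50 and -1.55 the most, and their sum was 2700 to 2910 before and 1570 to 1890 after in WT, and 4110 to 4410 before and 1980 to 2130 after in Rheb KO. Of 11 genes known to rise when tissue is dissociated 10 fell in WT and 11 in Rheb KO, with sums of 26200 to 26700 before and 10600 to 10800 after in WT, and of 24800 to 27700 before and 10200 to 12100 after in Rheb KO. The part of these lists in the fall of the hydrolases was not tested.

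**Figure D4:**
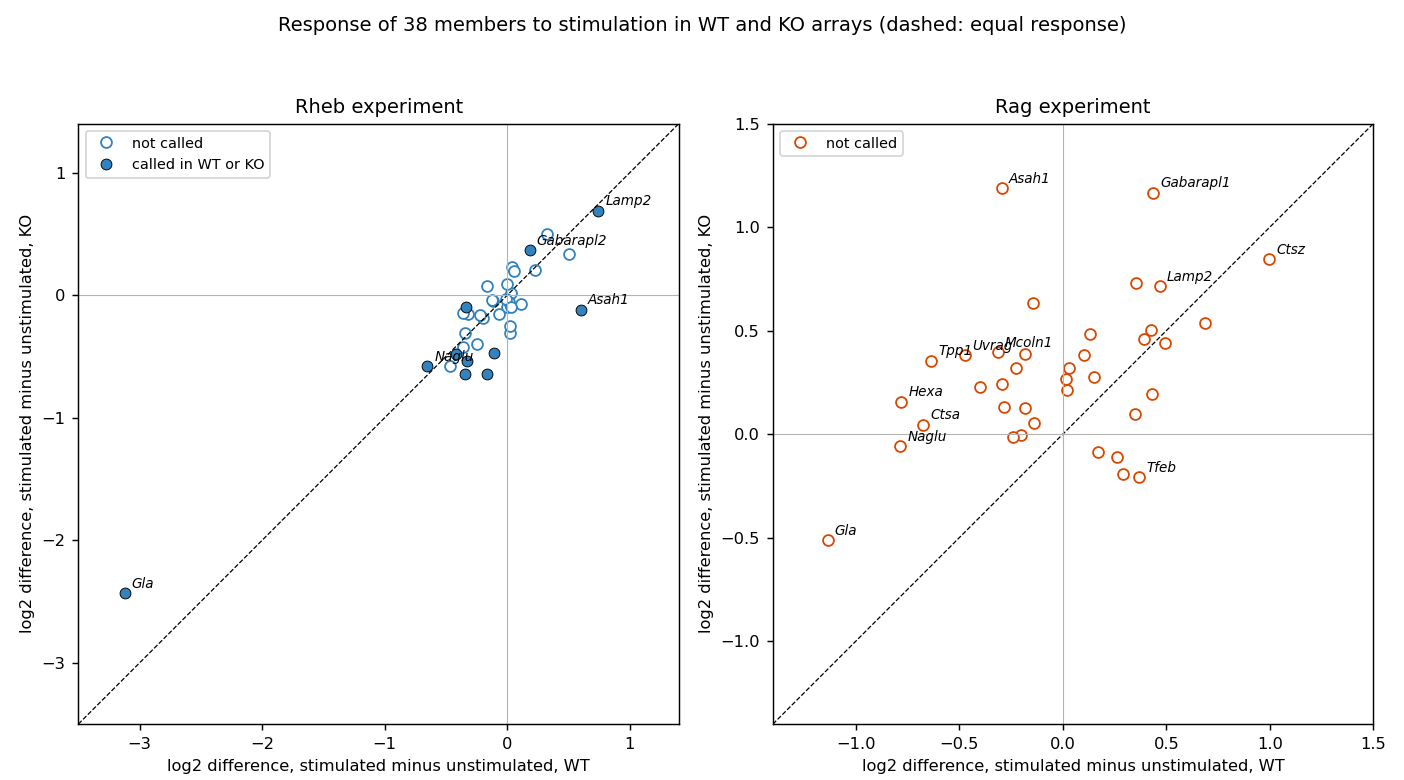
Each point is 1 of the 38 members, with its log2 difference of stimulated minus unstimulated arrays in WT on the horizontal axis and in KO on the vertical axis, for the Rheb experiment (left) and the Rag experiment (right); filled points were called in WT or KO and the dashed line marks equal responses. In the Rheb experiment Gla lies at -3.12 and -2.43, far from the rest, and in the Rag experiment 29 of 38 points lie above the line of equal response, a count that falls to 19 without unstimulated WT 1.

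In the Rag experiment no member was called as responding to stimulation, in WT (against 195 genes, 1.0%) or in Rag KO (against 258 genes, 1.32%), and 6 members had an unadjusted p under 0.05 in each, against 15.0% and 14.4% of all genes. Gla was 7.34 and 6.98 in unstimulated and 6.31 and 5.73 in stimulated WT arrays, and its difference of -1.14 ± 0.39 was called where only the WT arrays entered the fit (adjusted p = 0.0136, limma). In Rag KO arrays it was 6.05 and 7.53 before and 6.35 and 6.21 after, so that the groups overlapped. Genes called in all in the WT response ranged from 193 to 1930 over the settings that left out no single array. Asah1 was 8.43 and 8.61 before and 8.40 and 8.04 after stimulation in WT, and 8.05 and 8.87 before and 9.69 and 9.61 after in Rag KO. Its response was 1.48 ± 0.40 higher in Rag KO than in WT, which was not called (adjusted p = 0.728, limma).

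The response was higher in Rag KO than in WT for 29 of the 38 members, with a median difference of 0.29 against -0.08 over all genes and with no member and no gene in all called (0.0%) in limma, 1 member and 1202 genes (6.16%) having an unadjusted p under 0.05. Left-out arrays moved this count and median to 21 and 0.04 (without unstimulated Rag KO 1), 19 and 0.045 (unstimulated WT 1), 22 and 0.09 (stimulated WT 2), 30 and 0.46 (stimulated WT 1), 30 and 0.49 (unstimulated Rag KO 2) and 35 and 0.52 (unstimulated WT 2), and without unstimulated Rag KO 2 the members with an unadjusted p under 0.05 numbered 10. Tpp1 (0.99), Hexa (0.94), Naglu (0.73), Ctsa (0.72) and Mcoln1 (0.71) were among the higher ones and Tfeb (-0.57) had the most negative. The median response of the members was 0.02 in WT and 0.27 in Rag KO, against 0.21 and 0.09 over all genes, and after a second quantile normalization these medians of the members turned to -0.10 and -0.02. The WT median turned to -0.23 without unstimulated WT 2 and -0.10 without stimulated WT 1, and was 0.28 without unstimulated WT 1 and 0.14 without stimulated WT 2. The Rag KO median was 0.03 without unstimulated Rag KO 1, 0.18 without stimulated Rag KO 1 and 0.53 without unstimulated Rag KO 2. The second normalization moved the median of all genes by more than 0.1 in Rag KO, from 0.09 to -0.05, and lowered the count of members with a higher response in Rag KO from 29 to 22, with a median difference of 0.05.

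Other genes of the same pathways were counted beside the members, from lists chosen with earlier results of these data known. Their counts are therefore no independent check. Of 38 other lysosomal genes 31 were higher in stimulated Rag KO, with a median of 0.38, and 12 had an unadjusted p under 0.05, all higher, beside 3.69% of all genes. Scpep1, a serine carboxypeptidase, was called there, among 0.103% of all genes. It was 8.27 and 8.07 in Rag KO and 6.47 and 6.19 in WT arrays, a rise of 1.84 ± 0.28 (adjusted p = 0.0287, limma), and the call ended with 6 of the 8 arrays left out in turn, at 1.70 to 1.98. Of 11 other V-ATPase genes 9 were higher (median 0.23) and of 36 other autophagy genes 32 (median 0.28), with no call and with 1 and 3 genes at an unadjusted p under 0.05, all higher. In unstimulated Rag KO the medians of these 3 lists were 0.08, -0.10 and -0.17, and in stimulated Rheb KO -0.05, -0.12 and -0.01, again with no call.

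A list of 21 genes that control TFEB or mTORC1 at the lysosome had a median of 0.31 in stimulated Rag KO. Of these genes 8 had an unadjusted p under 0.05, all higher, beside 3.69% of all genes, and none was called. Rragd, which encodes RagD, a GTPase that helps present TFEB to mTORC1, was 10.26 and 10.48 in stimulated Rag KO and 9.21 and 9.05 in WT arrays (1.24 ± 0.31, adjusted p = 0.261, limma). It rose with stimulation in the Rheb experiment, by 1.02 in WT and 1.06 in Rheb KO, and in Rag KO arrays by 1.83 ± 0.31 (adjusted p = 0.0109, limma), where the call ended without either stimulated Rag KO array (1.94 and 1.72). Flcn and Fnip1, which form a complex that acts on these GTPases and are named after their values were seen, were 1.04 and 1.1 higher in stimulated Rag KO without a call, against 0.24 and -0.04 in Rheb KO. Mtor, the kinase itself, fell by 0.76 ± 0.15 in unstimulated Rheb KO (adjusted p = 0.0421, limma), a call that ended with 9 of 12 arrays left out in turn.

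On stimulation in the Rheb experiment, other lysosomal genes that were called all fell, 5 in WT and 6 in Rheb KO of 38, beside 4.89% and 5.19% of all genes called lower. In WT the largest were Arsb (-0.93), Lgmn (-0.83), Gm2a (-0.78) and Idua (-0.63), and in Rheb KO Arsb (-1.47), Lgmn (-1.31), Gm2a (-1.02) and Grn (-0.63). Arsb and Idua break down glycosaminoglycans, Lgmn is an asparagine-specific protease, Gm2a presents gangliosides to β-hexosaminidase and Grn encodes progranulin. Of these calls, those of Lgmn and Gm2a held in both genotypes with each array left out, and so did that of Arsb in Rheb KO. The call of Arsb in WT ended with 6 of 12 arrays left out in turn (-1.03 to -0.81), that of Idua without unstimulated WT 2 (-0.49) and that of Grn without unstimulated Rheb KO 1 (-0.55) or stimulated Rheb KO 3 (-0.50). Among V-ATPase genes Atp6v0a1 fell (-1.03 and -1.21), Atp6v1g1 rose (0.46 and 0.47) and Atp6ap2 fell in WT (-0.48). Among autophagy genes Atg10 fell (-0.54 and -0.52) and Atg4b rose (0.33 and 0.31) in both genotypes, Atg3 (-0.44) and Wdr45b (-0.45) fell in WT and Rb1cc1 rose in Rheb KO (0.66). Zkscan3, described as a repressor of autophagy genes, rose by 0.72 and 0.85. The calls of Atp6v0a1 and Zkscan3 in Rheb KO held with each array left out, while the others named here each ended with 2 to 9 of the 12 arrays left out in turn.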

How the data were processed

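The values used were the authors' deposited gene-level log2 signals from 20 Clariom S arrays, made by RMA with Affymetrix Expression Console 1.1, per the submitters' processing notes. The sources used here do not say if the experiments shared 1 normalization. The table held 28846 probe sets, 5222 of them negative controls. Each gene was represented by its named probe set of highest mean, which left 19505 genes, all tested. Groups followed the titles. limma 3.58.1 (R 4.3.3) fitted 1 mean per group to the 4 groups of an experiment, and to all 8 groups for Rag minus Rheb effects, giving 12 comparisons with two-sided tests. Genes were called at a Benjamini-Hochberg adjusted p below 0.05. Recovery was tested on simulated data for the unstimulated KO minus WT comparison of each experiment only, with independent normal noise. The stimulated comparisons, the responses and the Rag minus Rheb effects were not simulated. The number of arrays limits the precision.

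The members and lists were chosen with earlier results of these data known. The text names the targeted genes, members called in any comparison, Tfeb, Tfe3, Mcoln1, Sqstm1, Map1lc3b, Lamp1, Ulk1 and Gla, and up to 4 called genes per other list and comparison; other genes serve as ends of ranges or are said to be chosen afterwards. Alternatives were a second quantile normalization, leaving out the 40% dimmest genes, a trended robust prior, other arrays in the fit, a replicate block, the mean over probe sets (each member had 1) and each array left out. Promoter windows came from RefSeq (GRCm38.p6).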

Additional observations from a re-analysis of the deposited data

Results flagged for a closer look

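In 6 cases among the members, the targeted genes and the other pathway lists, the Rag knockout effect differed from the Rheb knockout effect. The test was of the difference itself (limma, all 20 arrays in 1 fit with a shared spread per gene, adjusted over 19505 genes). It called 11 genes in all unstimulated and 37 stimulated. The 6 values are Rag effect minus Rheb effect on the log2 scale. Among the members, the difference was 1.98 for Asah1 and 1.94 for Hexa in stimulated Tregs. Scpep1, a further lysosomal gene, differed by 1.71 in the same state. Of the targeted genes, Rraga differed by -2.51 unstimulated and by -2.06 stimulated. It is targeted in Rag KO and not in Rheb KO, so its difference follows from the design. Rhebl1 differed by 1.54 in stimulated Tregs, where it was 7.87 and 8.02 in Rag KO against 7.21 and 7.11 in WT arrays, and 4.99, 5.28 and 5.27 in Rheb KO against 6.05, 6.10 and 5.67 in WT arrays of the Rheb experiment. All its values in the Rheb experiment lay below the negative control median, so that the Rheb effect of -0.76 within this difference is one between values not above background. Its call ended with 6 of the 20 arrays left out in turn, at 1.45 to 1.62. Groups of 2 or 3 arrays are too small for a test of single outlying arrays.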

How the results depend on the processing

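Counts of members called depended on the setting. With the dimmest 40% of genes left out, or with a trended robust prior, 1 member was called in unstimulated Rheb KO, 4 in stimulated Rag KO and 2 in the Rag KO response. With only the groups compared in the fit, the counts were 0 in stimulated Rheb KO, 3 in the WT response of the Rheb experiment, 4 in stimulated Rag KO and 2 in the WT response of the Rag experiment. With all 20 arrays in the fit they were 0 in stimulated Rheb KO, 2 and 2 in the WT and Rheb KO responses, 1 and 4 in unstimulated and stimulated Rag KO, and 2 and 6 in the WT and Rag KO responses. A second quantile normalization gave 1 in unstimulated and 2 in stimulated Rag KO, 1 in the WT response of the Rag experiment and 4 for stimulated Rag minus Rheb effects. Without the 2 Rag experiment arrays of lowest median, both unstimulated and chosen after seeing the data, the counts were 4 in stimulated Rag KO, 1 and 1 in the WT and Rag KO responses, and 5 for stimulated Rag minus Rheb effects. With the replicate block, 0 members were called in stimulated Rheb KO and 2 in the Rag KO response. The block ended the calls of Ctsh (adjusted p = 0.088, limma), of Gabarapl2 in the Rheb KO response (0.0544) and of Mtor (0.0712) and Rheb (0.0501) in unstimulated Rheb KO, and in the responses those of Atp6v1g1 and Wdr45b (WT) and Atg10, Atg4b, Rptor and Sort1 (Rheb KO). The replicate numbers were not taken as pairs in the main fit. Correlations of same-numbered deviations ran from -0.2 to 0.178 in the Rheb experiment, with 2 of 18 pairs above 0.1 and 4 below -0.1. In the Rag experiment, where both replicates give the same value, they ran from -0.428 to 0.231. There 3 of 6 pairs of groups lay above 0.1 and 1 below -0.1.

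With 1 array left out, members called ranged from 0 to 1 (unstimulated Rheb KO), 0 to 0 (stimulated Rheb KO), 4 to 7 and 5 to 10 (WT and Rheb KO responses), 0 to 4 (stimulated Rag KO), 0 to 2 (WT and Rag KO responses of the Rag experiment, each), 0 to 1 (their difference), and 0 to 3 and 1 to 7 (unstimulated and stimulated Rag minus Rheb effects). Over the other settings, genes called in all ranged from 27 to 200 and 13 to 214 in unstimulated and stimulated Rheb KO, from 12 to 210 and 20 to 274 in Rag KO, from 806 to 2286 and 920 to 2331 in the responses of the Rheb experiment and from 193 to 1930 and 60 to 2146 in those of the Rag experiment, from 0 to 7 and 0 to 25 for differences between responses, and from 3 to 20 and 37 to 124 for Rag minus Rheb effects. No member called in the reported comparisons changed direction under any setting run, and the cause of the shifts in counts was not tested.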
